A study of Mus musculus with 6 samples.

Results

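The complement system is described here through 30 genes that encode its components, regulators and receptors, taken by gene symbol from a table of 24054 genes measured in mouse salivary gland. All 30 symbols were present in the table. The tissue came from 2 groups with 3 libraries each. Control mice were monogenic, meaning that they carried a single one of the transgenes, and the labels do not say which one. K5-RANKL mice (K5-rtTA:TetO-RANKL) carried both: rtTA, a doxycycline-dependent activator under the promoter of keratin 5, a gene of basal epithelial cells, and a TetO-controlled transgene for RANKL, a cytokine of the TNF family. Doxycycline was given to both groups with food and drinking water for 2 weeks, starting when the mice were 9 weeks old. Each library was a pool of gland tissue from 5 mice, so p-values measure the spread between pools. The labels name no strain, no sex and no particular gland.

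Complement is a cascade of plasma and cell surface proteins that tags particles for uptake, attracts leukocytes and can form pores in membranes. The classical pathway starts when C1q binds its target and activates the proteases C1r and C1s, which lead to cleavage of C4 and C2. The lectin pathway reaches the same step through mannose-binding lectins or ficolins and the MASP proteases. The alternative pathway uses factor B, factor D and properdin, and all pathways meet at C3 and then at C5, whose cleavage starts assembly of the membrane attack complex from C6 to C9. Host cells carry regulators that dismantle convertases or block the pore, and leukocytes carry receptors for C1q, for the fragments of C3 and for the anaphylatoxins C3a and C5a. The liver makes most of the plasma proteins, while macrophages are a main source of C1q and adipocytes of factor D.

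The promoter sequences below belong to members that stood higher in K5-RANKL glands, and are shown because each is a start site of a gene whose values follow, with and without a match to a motif of an inflammatory or myeloid transcription factor. RefSeq promoters on GRCm38.p6, the assembly behind mm10, were matched for 22 of the 30 members, with 23 promoters in all. Shown are the 250 bases before the start site, 5′ to 3′ on the strand of the gene, with motif matches in capitals.
C1qb (chr4:136886201-136886450, minus strand): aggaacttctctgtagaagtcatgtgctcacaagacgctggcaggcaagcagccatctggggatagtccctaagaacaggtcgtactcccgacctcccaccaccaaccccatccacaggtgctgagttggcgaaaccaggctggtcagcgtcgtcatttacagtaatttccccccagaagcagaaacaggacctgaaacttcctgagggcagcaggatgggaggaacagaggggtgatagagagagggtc
C1qc (chr4:136892915-136893164, minus strand): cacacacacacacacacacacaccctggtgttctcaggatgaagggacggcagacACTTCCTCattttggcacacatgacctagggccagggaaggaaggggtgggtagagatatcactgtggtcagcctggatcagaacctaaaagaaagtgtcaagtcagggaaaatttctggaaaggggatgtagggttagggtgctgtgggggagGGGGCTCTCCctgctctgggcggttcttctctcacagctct
C3 (chr17:57228137-57228386, minus strand): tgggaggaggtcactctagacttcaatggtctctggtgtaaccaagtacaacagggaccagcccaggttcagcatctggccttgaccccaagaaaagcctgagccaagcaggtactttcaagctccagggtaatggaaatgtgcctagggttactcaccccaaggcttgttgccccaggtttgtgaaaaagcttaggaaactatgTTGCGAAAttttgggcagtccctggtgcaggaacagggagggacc
C3ar1 (chr6:122856158-122856407, minus strand): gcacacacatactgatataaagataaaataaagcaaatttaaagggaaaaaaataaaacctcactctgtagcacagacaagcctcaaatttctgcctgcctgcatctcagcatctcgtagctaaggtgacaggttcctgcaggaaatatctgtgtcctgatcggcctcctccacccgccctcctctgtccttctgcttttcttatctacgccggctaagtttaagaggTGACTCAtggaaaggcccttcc
Itgax (chr7:128129300-128129549, plus strand): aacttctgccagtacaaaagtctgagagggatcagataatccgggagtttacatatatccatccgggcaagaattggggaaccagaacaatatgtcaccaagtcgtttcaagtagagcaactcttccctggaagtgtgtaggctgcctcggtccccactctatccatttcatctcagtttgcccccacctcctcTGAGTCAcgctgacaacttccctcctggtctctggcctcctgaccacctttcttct

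The motifs searched on both strands were AP-1 (TGANTCA), STAT (TTCNNNGAA), C/EBP (TTGCNNAA), PU.1 (GAGGAAGT), the interferon-stimulated response element and the NF-kB consensus. The capitals mark AP-1 in C3ar1, 22 bases before the start site counted to the first base of the match, and in Itgax at 56 bases. In C3 they mark C/EBP at 45 bases. In C1qc they mark the reverse complement of PU.1 at 195 bases and an NF-kB match at 41 bases, and the window of C1qb held none of the 6. Among members that rose and whose promoters are not shown, C7 held a STAT match. The windows of C1ra, C5ar1, C6, Cd55, Cfp, Cr1l, Cr2, Itgam and Vsig4 held none of the 6, so the display is not typical of the members that rose. AP-1 matched 4 of the 23 member promoters (17.4%) and 6.75% of all 32851 promoters. The other AP-1 matches lay before C1qbp and C8g, which did not stand higher in K5-RANKL glands. Each other motif matched 1 or 2 of the 23, where 2.44% to 9.56% of all promoters held it. A match describes letters in this window and says nothing of whether a factor was bound.

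The depth of the control libraries was 13875951 to 17921815 counts, and that of the K5-RANKL libraries 14149734 to 16412579. Tnfsf11, which encodes RANKL, had 3.78, 1.86 and 0.938 CPM in controls and 701, 405 and 723 CPM with the transgenes. CPM are counts per 1000000 of a library size adjusted by the trimmed mean of M values (TMM), so the CPM of a library need not sum to 1000000. Over all genes tested they summed to 1359840 to 1476314 in controls and to 680070 to 755840 in K5-RANKL libraries. The 6 acinar markers that define salivary secretory cells summed to at least 463885 CPM in each control and to at most 163746 CPM in each K5-RANKL library. Scaling by library totals alone moved the median log2 fold change of the 14044 tested genes from 0.01 to 1.01, with 83.5% of them then called higher and 4.97% lower. Values are given on the TMM scale throughout, and members whose call or direction differs by library totals are named. RNA came from whole tissue, so more cells of a type and more RNA per cell cannot be told apart.

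Most complement genes stood higher in K5-RANKL glands. Of the 30 members 27 had enough counts to test, and 23 of these rose, 1 fell and 3 did not pass (edgeR quasi-likelihood test, Benjamini-Hochberg adjusted p under 0.05 over all 14044 genes tested). The same test called 66.2% of all genes tested, 34.2% as higher and 32.1% as lower. The median log2 fold change of the 27 was 2.11, and it was 2.11 with Vsig4 at its lower bound, beside 0.01 over all genes tested. A log2 fold change of at least 2 was reached by 14 of the 27 and by 6.67% of all genes tested. The groups did not overlap for 24 of the 27, where 70.4% of all genes tested had groups that did not overlap. The members that passed the low-count filter are not all members: Hc, Cd46 and Masp2 had too few counts. Members whose counts came mostly from the K5-RANKL libraries passed through that group, so these counts are a description.

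**Figure D1:**
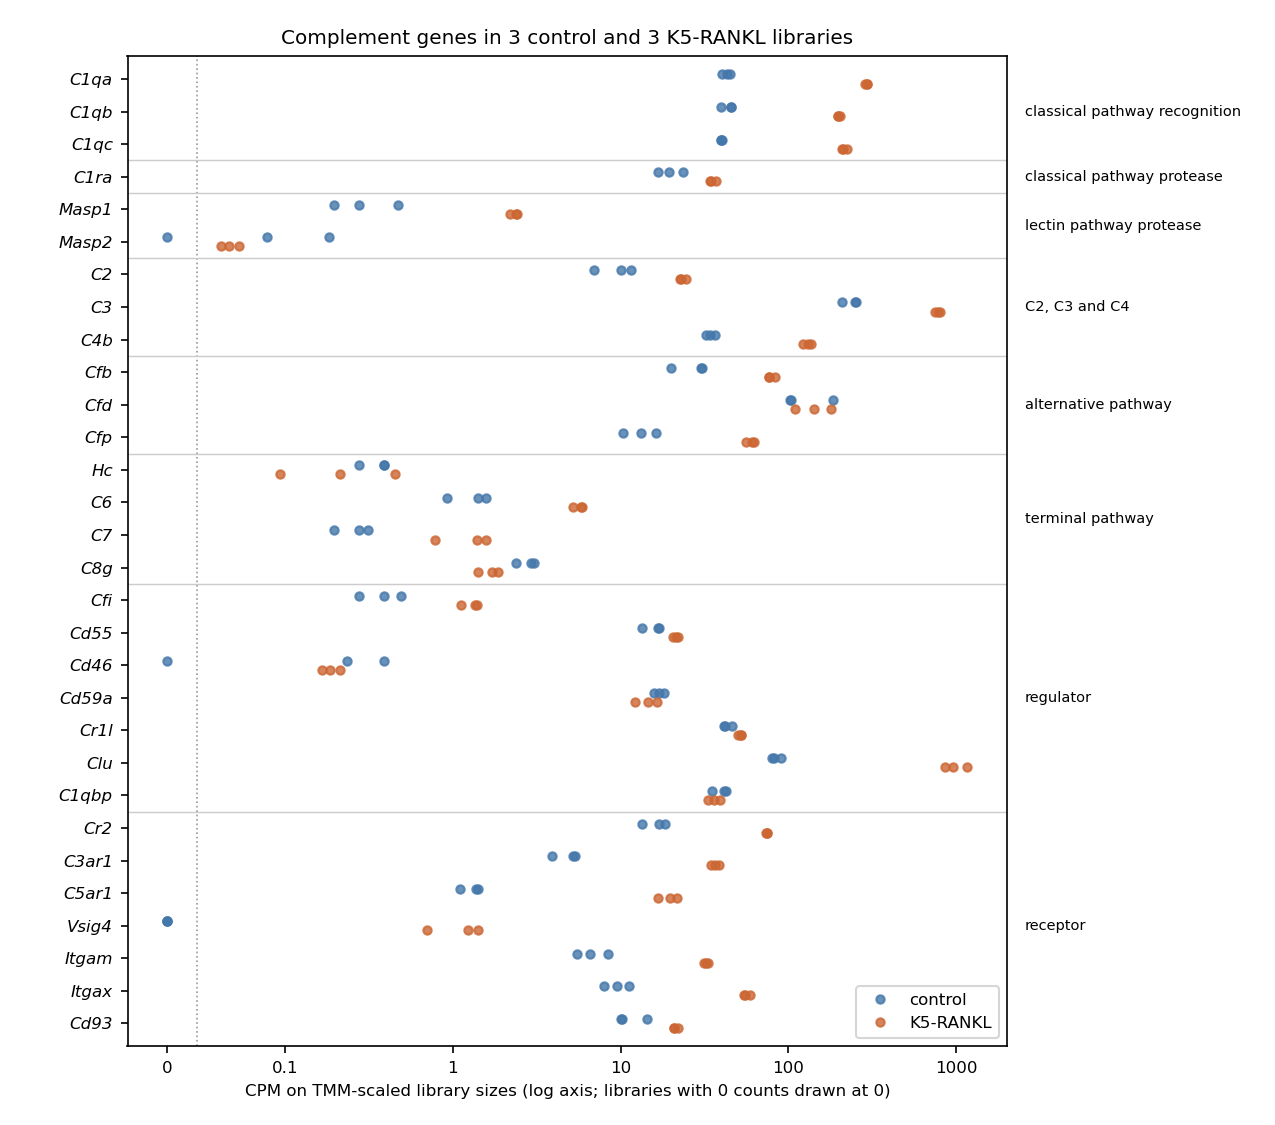
CPM on TMM-scaled library sizes (x axis, log scale, with libraries at 0 counts drawn at 0) of the 30 complement genes (y axis), grouped by role, in 3 control (blue) and 3 K5-RANKL (orange) libraries. Each point is a library. The 3 C1q genes sit at 39.8 to 45.7 CPM in controls and between 196 and 295 CPM in K5-RANKL libraries. The ranges of Cfd overlap.

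The genes of C1q, the recognition molecule of the classical pathway built from A, B and C chains, rose by 4.56 to 6.84 times. C1qa (chromosome 4 from 136895916 to 136898844) stood at 43.2, 44.9 and 40.2 CPM in controls and at 295, 295 and 286 CPM in K5-RANKL libraries. C1qb (136880126 to 136886200) stood at 39.9, 45.3 and 45.7 CPM in controls and at 198, 203 and 196 CPM in K5-RANKL libraries. C1qc (136889801 to 136892936) stood at 40.3, 39.8 and 39.9 CPM in controls and at 212, 223 and 209 CPM in K5-RANKL libraries. Every K5-RANKL library lay above every control for each of these neighbouring genes. On the log2 scale C1qa rose by 2.77 (SE 0.08, 6.84-fold, edgeR adjusted p = 1.54e-14), C1qc by 2.43 (SE 0.07, adjusted p = 5.43e-14) and C1qb by 2.19 (SE 0.08, adjusted p = 2.68e-13). The chains did not move by equal amounts. C1qa had 1.08, 0.991 and 0.879 reads for each read of C1qb in controls, and 1.49, 1.46 and 1.46 in K5-RANKL libraries. This ratio was chosen after the values were seen, and no test was made of it.

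All 8 genes of the macrophage marker list rose as well, and their summed level went from a range of 268 to 342 CPM in controls to 1823 to 1919 CPM in K5-RANKL libraries. Lyz2, encoding lysozyme and the most abundant of the list, rose by 2.78 (edgeR adjusted p = 3.79e-13), the largest change among the 8. Its mean went from 210 to 1439 CPM, so Lyz2 made up most of this sum in both groups. The other 7 rose by between 0.49 (Mertk) and 2.56 (Cd68), named after their values were seen. The reads of C1qa, C1qb and C1qc together were 1.42, 1.16 and 1.14 times those of the 7 macrophage markers other than Lyz2 in controls, and 1.62, 1.59 and 1.55 times in K5-RANKL libraries. The groups did not overlap, and the difference was 0.36 on the log2 scale (exact two-sided permutation test p = 0.1, the smallest that 3 against 3 libraries can give, adjusted p = 0.14 over 7 ratios). A ratio within a library does not depend on the scaling between libraries. The part of macrophage number in the rise of the C1q genes was not tested.

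The gene of the protease C1r, which acts next after C1q, rose by a smaller fold than the C1q genes. C1ra, encoding the protease C1r (chromosome 6 from 124512621 to 124523440), stood at 16.8, 23.5 and 19.4 CPM in controls and at 34.7, 34.0 and 37.1 CPM in K5-RANKL libraries. The groups did not overlap, and C1ra rose by 0.83 (SE 0.10, 1.78-fold, edgeR adjusted p = 1.91e-06). C1s1, its partner protease and not among the 30, rose by 0.58 (SE 0.09, adjusted p = 3.74e-05), from 42.3 ± 3.52 to 63.2 ± 7.42 CPM (SD, n = 3 each). C1rl, an adjacent gene for a C1r-like protease, fell by 1.24 (SE 0.13, adjusted p = 7.57e-07) from 21.9 ± 3.89 to 9.33 ± 1.26 CPM. By library totals the call of C1rl was lost, at −0.25 (adjusted p = 0.104). C1ra has a near-identical copy, C1rb, that held 2 counts over the controls and 121 over the K5-RANKL libraries. The ratio of the CPM behind these counts was 31.8, with a 95% interval from counting error of 8.63 to 266. The labels do not say how reads shared by such copies were assigned. C1rb was singled out after its values were seen.

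Of the lectin pathway proteases, Masp1 (chromosome 16 from 23451785 to 23521240) was scarce in both groups. It held 0.196 to 0.469 CPM in controls and 2.19 to 2.41 CPM in K5-RANKL libraries, without overlap, and rose by 2.82 (SE 0.35, edgeR adjusted p = 1.43e-06). Only its K5-RANKL counts took Masp1 through the low-count filter, so this p-value is a description. Masp2 had 6 counts over all libraries, too few to test. Fcna, encoding a ficolin, one of the recognition molecules of this pathway, rose by 3.23 (SE 0.21, adjusted p = 4.15e-10), with 1.25 to 1.86 CPM in controls and 11.5 to 16.8 CPM in K5-RANKL libraries. The mannose-binding lectin genes Mbl1 and Mbl2 had 0 and 1 counts over all libraries.

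C3, the component where the pathways meet and the precursor of the opsonin C3b, stood at 209, 252 and 249 CPM in controls and at 796, 751 and 775 CPM in K5-RANKL libraries. All K5-RANKL libraries were above all controls, and C3 (chromosome 17 from 57203967 to 57228136) rose by 1.71 (SE 0.09, 3.27-fold, edgeR adjusted p = 2.21e-11). C4b, encoding C4 (chromosome 17 from 34728139 to 34743902), held 32.1, 36.5 and 34.2 CPM in controls and 131, 122 and 136 CPM in K5-RANKL libraries. It rose by 1.92 (SE 0.08, adjusted p = 1.79e-12), again without overlap. C4a, a near-identical copy, stayed below 2 CPM in every library and rose by 2.06 (SE 0.45, adjusted p = 0.000704). The p-value of C4a is a description, because it passed the low-count filter only through its K5-RANKL counts. C2, the protease of the classical C3 convertase (chromosome 17 from 34862602 to 34882100), held 6.91, 10.01 and 11.6 CPM in controls and 22.5, 22.8 and 24.4 CPM in K5-RANKL libraries. Its groups did not overlap, and it rose by 1.28 (SE 0.13, 2.43-fold, adjusted p = 4.18e-07).

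In the alternative pathway factor B and properdin rose and factor D did not pass. Cfb, encoding factor B (chromosome 17 from 34856374 to 34862514), stood at 19.9, 30.4 and 30.2 CPM in controls and at 83.3, 76.2 and 76.2 CPM in K5-RANKL libraries. No K5-RANKL library came down to the control range, and Cfb rose by 1.55 (SE 0.13, 2.92-fold, edgeR adjusted p = 5.88e-07). Cfp, encoding properdin, which stabilises the alternative convertase (chromosome X from 20925454 to 20931555), held 10.3, 13.2 and 16.2 CPM in controls and 62.1, 60.7 and 56.2 CPM in K5-RANKL libraries. It rose by 2.16 (SE 0.12, 4.47-fold, adjusted p = 2.5e-10), without overlap between groups. Reads of Cfb per read of C3 were 0.0952, 0.121 and 0.121 in controls and 0.105, 0.101 and 0.0984 in K5-RANKL libraries, ranges that overlap (exact two-sided permutation p = 0.4, adjusted p = 0.467). Control 1 alone lay below the K5-RANKL libraries. The log2 difference of this ratio was −0.14 with all libraries and −0.25 without control 1, when the ranges no longer overlapped, and −0.08 without control 2 or control 3. Reads of C2 per read of Cfb, its neighbour on the chromosome, were 0.347, 0.329 and 0.383 in controls and 0.27, 0.3 and 0.32 in K5-RANKL libraries. These ranges did not overlap, with a log2 difference of −0.25 (exact two-sided permutation p = 0.1, adjusted p = 0.14).

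Cfd, encoding the serine protease that cleaves factor B (chromosome 10 from 79890853 to 79892655), varied more than any other of the 22 members that reached 5 CPM. Its values were 183, 102 and 104 CPM in controls and 179, 141 and 110 CPM in K5-RANKL libraries. Control 1 was the highest of all 6 libraries, and the groups overlapped, with a log2 fold change of 0.14 (SE 0.33, edgeR adjusted p = 0.734). Without control 1 it was 0.47 (adjusted p = 0.148) and without K5-RANKL 3 it was 0.30 (adjusted p = 0.52). Without control 2 or control 3 it was −0.00, and without K5-RANKL 1 it was −0.05. By library totals Cfd was called higher, at 1.16 (adjusted p = 0.0224), where the median of all genes is 1.01. The 6 adipocyte markers summed to 154 to 231 CPM in controls and 169 to 207 CPM in K5-RANKL libraries; 1 of the 6, the resistin gene Retn, fell and 5 did not pass. Adipoq, encoding adiponectin and the most abundant of them, stood at −0.22 (adjusted p = 0.188). Reads of Cfd per read of these markers were 0.792, 0.664 and 0.532 in controls and 1.06, 0.682 and 0.558 in K5-RANKL libraries (exact two-sided permutation p = 0.6, adjusted p = 0.6). The log2 difference of this ratio was 0.18, and −0.08 without K5-RANKL 1.

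C2, Cfb and C4b lie in the H2 complex, the mouse major histocompatibility region. Of 53 genes tested on chromosome 17 from 34341952 to 35328142, the stretch that H2-Ea-ps and H2-Q1 bound, 23 rose (43.4%) and 11 fell. Of the 53, 2 had under 0.15 CPM throughout 1 group and at least 2 CPM throughout the other. The stretch was chosen with earlier results of these data known. Over all genes tested 34.2% rose and 32.1% fell. The median log2 fold change of the 53 was 0.17, beside 0.01 over all genes tested. Nelfe, next to Cfb, stood at −0.09 (edgeR adjusted p = 0.498) and Zbtb12, next to C2, at −0.13 (adjusted p = 0.533), so neither neighbour passed the test. Tnxb, the tenascin gene next to C4b, rose by 1.25 (adjusted p = 5.59e-09). Of other genes close by, Stk19, next to C4a, fell by 0.58 (adjusted p = 0.000634) and Slc44a4 by 1.89 (adjusted p = 1.66e-09). Fkbpl, Atf6b, Dxo, Skiv2l and Ehmt2 did not pass. Scaled by library totals, 44 genes of this stretch rose and 2 fell. The labels give no strain, and the part of a difference between the groups in this region in the values of C2, Cfb and C4b was not tested. C3 lies on the same chromosome outside this stretch.

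Transcripts of the terminal pathway were scarce. C6 (chromosome 15 from 4727067 to 4804045) held 0.921, 1.57 and 1.41 CPM in controls and 5.23, 5.77 and 5.91 CPM in K5-RANKL libraries. It rose by 2.11 (SE 0.22, 4.31-fold, edgeR adjusted p = 1.69e-07), and no control reached the K5-RANKL range. C7, which binds the growing complex to the membrane, rose by 2.19 (SE 0.46, adjusted p = 0.000433) from 0.262 ± 0.0596 to 1.25 ± 0.415 CPM (SD, n = 3 each). The p-value of C7 is a description, because it passed the low-count filter only through its K5-RANKL counts. C8g, encoding the gamma chain of C8 (chromosome 2 from 25498650 to 25501777), was the member that fell, by 0.76 (SE 0.23, adjusted p = 0.00749). It held 2.40, 2.94 and 3.05 CPM in controls and 1.41, 1.71 and 1.86 CPM in K5-RANKL libraries. By library totals C8g stood at 0.24 and was not called (adjusted p = 0.365). Hc, encoding C5, stayed under 0.5 CPM in every library and was not tested. The genes of the other pore subunits, C8a, C8b and C9, had no more than 4 counts each over the 6 libraries.

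The log2 fold changes of the 6 regulators tested ranged from −0.24 to 3.56, with a median of 0.35. Clu, encoding clusterin, a secreted chaperone that binds the terminal complex, stood at 82.2, 79.9 and 89.99 CPM in controls and at 1162, 856 and 955 CPM in K5-RANKL libraries. K5-RANKL 1 was the highest, and all 3 were far above the controls. Clu (chromosome 14 from 65968483 to 65981548) rose by 3.56 (SE 0.11, 11.8-fold, edgeR adjusted p = 2.36e-13). Cfi, encoding factor I, the protease that inactivates C3b and C4b, was scarce, at 0.276 to 0.491 CPM in controls and 1.12 to 1.39 CPM in K5-RANKL libraries. It rose by 1.72 (SE 0.37, adjusted p = 0.00056). Only its K5-RANKL counts took Cfi through the low-count filter, so this p-value is a description. Serping1, encoding the C1 inhibitor and not among the 30, rose by 1.79 (SE 0.08, adjusted p = 6.58e-12) from 45.2 ± 5.03 to 157 ± 3.401 CPM (SD, n = 3 each).

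Of the membrane regulators among the 30, Cd55 and Cr1l rose by 1.36 and 1.19 times, Cd59a did not pass and Cd46 was not tested. Cd55, encoding decay-accelerating factor, which breaks up C3 convertases (chromosome 1 from 130429798 to 130465009), held 13.5, 16.9 and 16.7 CPM in controls and 21.5, 20.4 and 22.1 CPM in K5-RANKL libraries. The groups did not overlap, and it rose by 0.45 (SE 0.10, 1.36-fold, edgeR adjusted p = 0.000874). Cr1l, which encodes the rodent regulator Crry (chromosome 1 from 195098711 to 195131570), held 41.9, 46.4 and 41.1 CPM in controls and 52.2, 51.9 and 49.8 CPM in K5-RANKL libraries. It rose by 0.25 (SE 0.08, 1.19-fold, adjusted p = 0.00796), also without overlap. Cd59a, whose product blocks the membrane pore (chromosome 2 from 104095753 to 104115410), held 16.95, 18.2 and 15.9 CPM in controls and 12.1, 16.5 and 14.5 CPM in K5-RANKL libraries. These ranges overlapped, and the log2 fold change was −0.24 (SE 0.12, adjusted p = 0.0749). Without K5-RANKL 2 Cd59a was called lower, at −0.36 (adjusted p = 0.0117), and without K5-RANKL 1 it stood at −0.13. By library totals it was called higher, at 0.75 (adjusted p = 4.18e-06).

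Reads of Cd55 per read of C3 were 0.0643, 0.067 and 0.0668 in controls and 0.0271, 0.0272 and 0.0285 in K5-RANKL libraries. The groups lay apart, with every K5-RANKL ratio below every control. This ratio was picked with the values in view and was not tested. Cd46, the gene of a membrane cofactor that in mice is known mainly from the testis, held at most 4 counts in a library and was not tested. C1qbp, encoding a mitochondrial protein also named for binding C1q (chromosome 11 from 70977846 to 70983026), held 41.3, 42.6 and 34.9 CPM in controls and 39.3, 33.3 and 36.2 CPM in K5-RANKL libraries. The groups overlapped, and it stood at −0.12 (SE 0.09, edgeR adjusted p = 0.254), between −0.21 without control 3 and −0.07 without control 2 or K5-RANKL 2. By library totals C1qbp was called higher, at 0.88 (adjusted p = 1.1e-07).

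**Figure D2:**
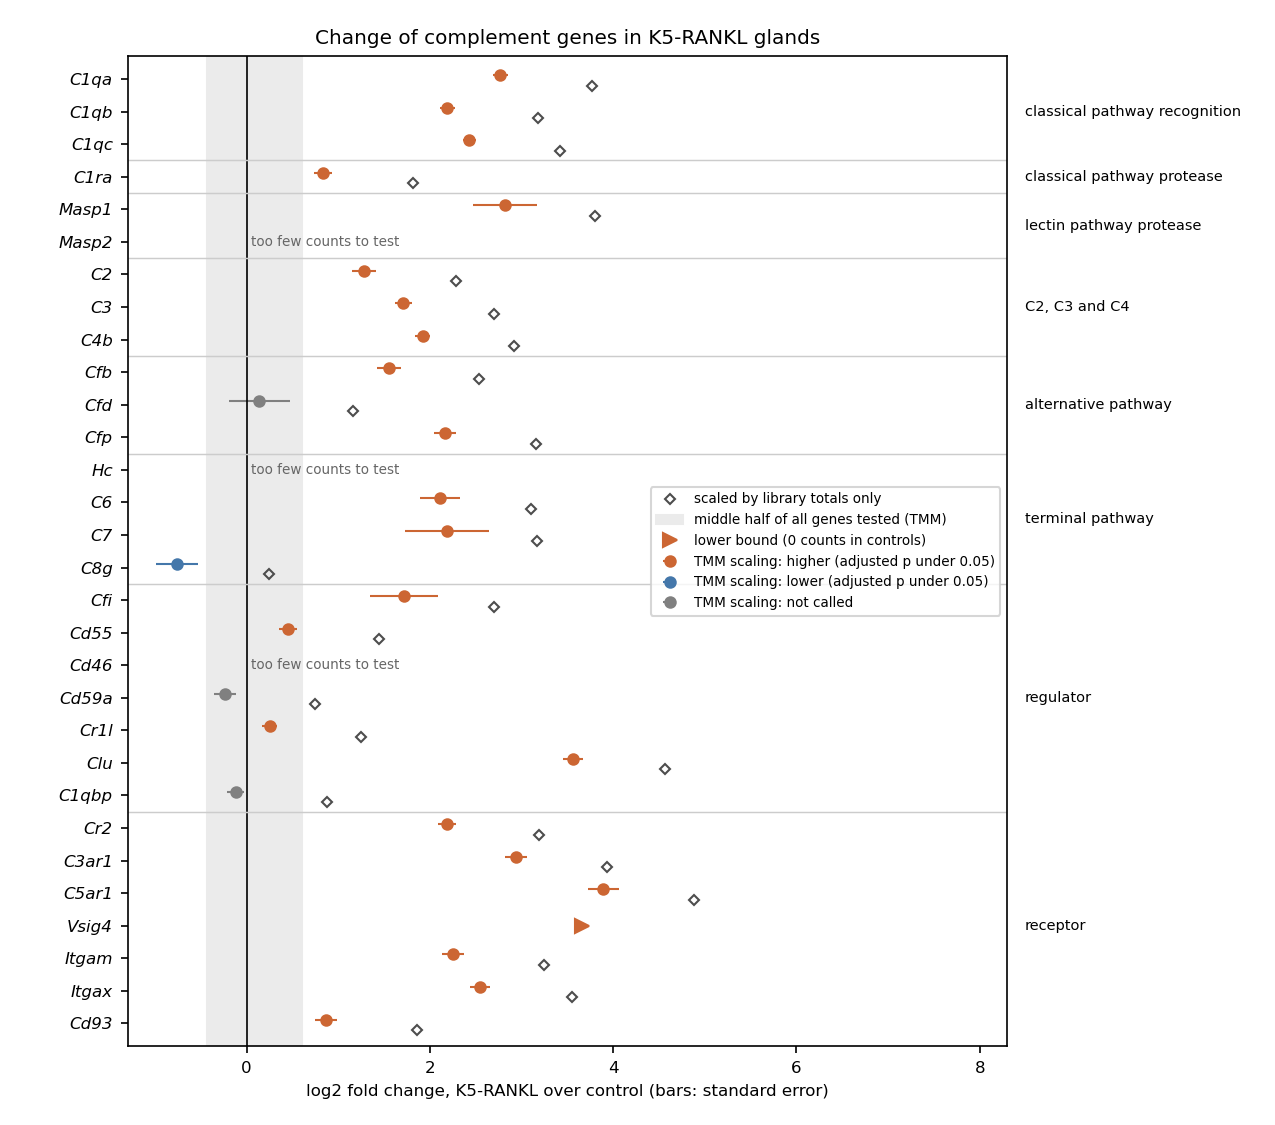
Log2 fold change of K5-RANKL over control (x axis) for the complement genes (y axis), with TMM scaling (filled, bars are standard errors, colour is the call) and by library totals alone (open diamonds), over the range from the lower to the upper quartile of all genes tested (grey, −0.43 to 0.60). Clu and C5ar1 stand farthest right among members with counts in controls, the triangle is the lower bound of Vsig4, and C8g, Cd59a and C1qbp lie left of 0 with TMM scaling and right of 0 by library totals.

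All 7 receptor genes rose. C5ar1, encoding the receptor of C5a that draws and activates neutrophils and macrophages, stood at 1.11, 1.37 and 1.41 CPM in controls and at 16.8, 21.7 and 19.6 CPM in K5-RANKL libraries. C5ar1 (chromosome 7 from 16246743 to 16259540) rose by 3.89 (SE 0.17, 14.8-fold, edgeR adjusted p = 4.28e-12). C3ar1, encoding the receptor of C3a (chromosome 6 from 122847140 to 122856157), held 5.34, 5.20 and 3.91 CPM in controls and 34.6, 38.8 and 36.4 CPM in K5-RANKL libraries. It rose by 2.94 (SE 0.12, 7.65-fold, adjusted p = 1.1e-12). For neither receptor did the groups overlap. Vsig4, which encodes CRIg, a receptor for C3b on tissue-resident macrophages, had 0 counts in every control and 0.698 to 1.41 CPM in K5-RANKL libraries. It was at least 12.6-fold higher, against 3 counts over the control group, a bound that covers counting error only (adjusted p = 1.72e-05). Only its K5-RANKL counts took Vsig4 through the low-count filter, so this p-value is a description.

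Itgam and Itgax, neighbours on chromosome 7, encode the alpha chains of complement receptors 3 and 4, which bind inactivated C3b and pair with the beta chain encoded by Itgb2. Itgam (128062640 to 128118491) held 5.53, 8.44 and 6.57 CPM in controls and 32.2, 31.5 and 33.2 CPM in K5-RANKL libraries. Itgax (128129526 to 128150657) held 8.01, 11.3 and 9.54 CPM in controls and 59.1, 54.5 and 55.2 CPM in K5-RANKL libraries. Neither overlapped between groups, and they rose by 2.25 (SE 0.12, edgeR adjusted p = 3.33e-11) and 2.55 (SE 0.11, adjusted p = 1.43e-12). Itgb2 rose by 1.79 (SE 0.10, adjusted p = 3.99e-11), from 22.6 ± 3.28 to 77.9 ± 3.93 CPM (SD, n = 3 each). Reads of Itgax per read of Itgb2 were 0.424, 0.449 and 0.401 in controls and 0.734, 0.684 and 0.752 in K5-RANKL libraries. For Itgam the ratios were 0.293, 0.336 and 0.276 in controls and 0.4, 0.395 and 0.453 in K5-RANKL libraries. Neither ratio overlapped between groups, with log2 differences of 0.77 and 0.47 (exact two-sided permutation p = 0.1 each, adjusted p = 0.14).

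Markers of the leukocytes that carry these receptors also rose where they had enough counts to test. All 6 dendritic cell markers rose, with a summed level of 22.9 to 24.4 CPM in controls and 67.9 to 73.6 CPM in K5-RANKL libraries. Ccr7, the homing receptor of mature dendritic cells and the most abundant of them, rose by 1.46 (edgeR adjusted p = 2.92e-10). Neutrophil markers were near the detection limit: 7 of the 8 listed were in the table, 3 had enough counts to test and all 3 rose. These 3, S100a8, S100a9 and Cxcr2, passed the low-count filter only through their K5-RANKL counts, so their rise is a description. Of the markers not tested, Mpo, Ngp and Camp had groups that overlapped, and Retnlg was higher with the transgenes, without overlap. The summed level of all 7 ranged from 1.29 to 3.21 CPM for control libraries and from 5.77 to 7.26 CPM for K5-RANKL libraries. Cxcr2 was the most abundant. No marker of these lists was at 0 in all libraries of a group. The part of leukocyte number in the rise of the receptor genes was not tested.

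Cr2, which in mice encodes both complement receptors 1 and 2, carried by B cells and follicular dendritic cells, rose while most markers of B cells did not pass the test. It held 18.4, 16.9 and 13.5 CPM in controls and 73.1, 74.1 and 74.5 CPM in K5-RANKL libraries. The K5-RANKL values lay within 1 CPM of their mean, above every control, and Cr2 (chromosome 1 from 195136811 to 195176880) rose by 2.19 (SE 0.10, 4.57-fold, edgeR adjusted p = 3.68e-12). Of 6 B cell markers 1, Ms4a1, rose (0.31, adjusted p = 0.00238), and 5 did not pass, with summed levels of 109 to 122 CPM in controls and 123 to 137 CPM in K5-RANKL libraries. Cd79a, the most abundant B cell marker over the libraries, stood at 0.16 (adjusted p = 0.149). Of the 3 follicular dendritic cell markers in the table, Cxcl13 (0.25, adjusted p = 0.0171) and Madcam1 (0.73, adjusted p = 0.0392) rose and Fcer2a stood at 0.01 (adjusted p = 0.95); Ms4a1, Madcam1, Fcer2a and Retn are named after their values were seen. The follicular dendritic cell markers had summed levels of 34.0 to 38.2 and 40.3 to 40.8 CPM. Reads of Cr2 per read of the B cell markers were 0.151, 0.155 and 0.115 in controls and 0.545, 0.543 and 0.608 in K5-RANKL libraries. These did not overlap, and the log2 difference was 2.02 (4.06-fold, exact two-sided permutation p = 0.1, adjusted p = 0.14), between 1.89 and 2.10 with any 1 library left out. Cr1l, next to Cr2 on the chromosome, took 1 read for every 0.327 to 0.44 reads of Cr2 in controls and for every 1.4 to 1.49 in K5-RANKL libraries, a ratio chosen after the values were seen. The cells that carried these Cr2 transcripts cannot be told from whole-tissue counts.

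Cd93, a lectin-like receptor of endothelial and myeloid cells once described as a C1q receptor (chromosome 2 from 148436651 to 148443535), held 10.2, 10.01 and 14.4 CPM in controls and 20.9, 21.9 and 21.0 CPM in K5-RANKL libraries. It rose by 0.87 (SE 0.12, 1.82-fold, edgeR adjusted p = 6.53e-06), without overlap. Of 6 endothelial markers 2 rose, 2 fell and 2 did not pass, and their summed level was 125 to 147 CPM in controls and 146 to 153 CPM in K5-RANKL libraries. Pecam1, the most abundant of them, rose by 0.37 (adjusted p = 0.000379).

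**Figure D3:**
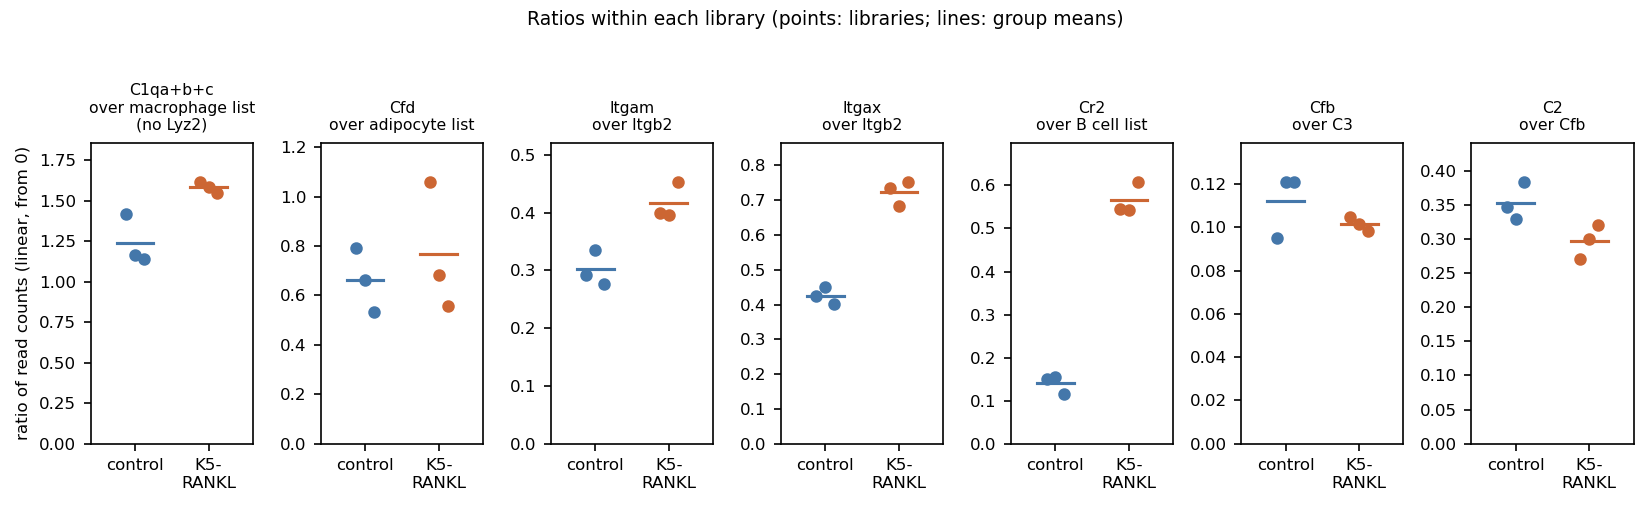
Ratios of read counts within each library (y axis, linear from 0) for the 7 pairs tested, in 3 control (blue) and 3 K5-RANKL (orange) libraries, with points for libraries and lines for group means. The ratio of Cr2 to the B cell markers goes from 0.115 to 0.155 in controls to 0.543 to 0.608 in K5-RANKL libraries, while the ranges overlap for Cfd over adipocyte markers and for Cfb over C3.

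Per kb of exon, which allows levels to be compared between genes, the order of the members differed between groups. In controls Cfd was the most abundant, at a mean of 141 CPM per kb, and it was followed by Clu at 46.4, C3 at 46.1, C1qa at 41.1 and C1qb at 40.1. In K5-RANKL libraries Clu led at 548 CPM per kb, with C1qa at 281, C1qb at 183, C1qc at 179, Cfd at 155 and C3 at 151. The neighbours Clu and C3, and C1qa and C1qb, in the control order, and C1qb and C1qc, C1qc and Cfd, and Cfd and C3 in the K5-RANKL order, were closer than the spread between libraries. C5ar1 went from rank 22 to rank 19 of 30 and C3ar1 from 21 to 15, while Cd59a went from 10 to 18. Between libraries of a group, the coefficient of variation over the 22 members that reached 5 CPM had a median of 14.2% in controls and 4.57% in K5-RANKL libraries, and Cfd had the highest in both, at 35.6% and 24.2%. Control 1 held the lowest of the control values for 15 of the 27 members tested.

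**Figure D4:**
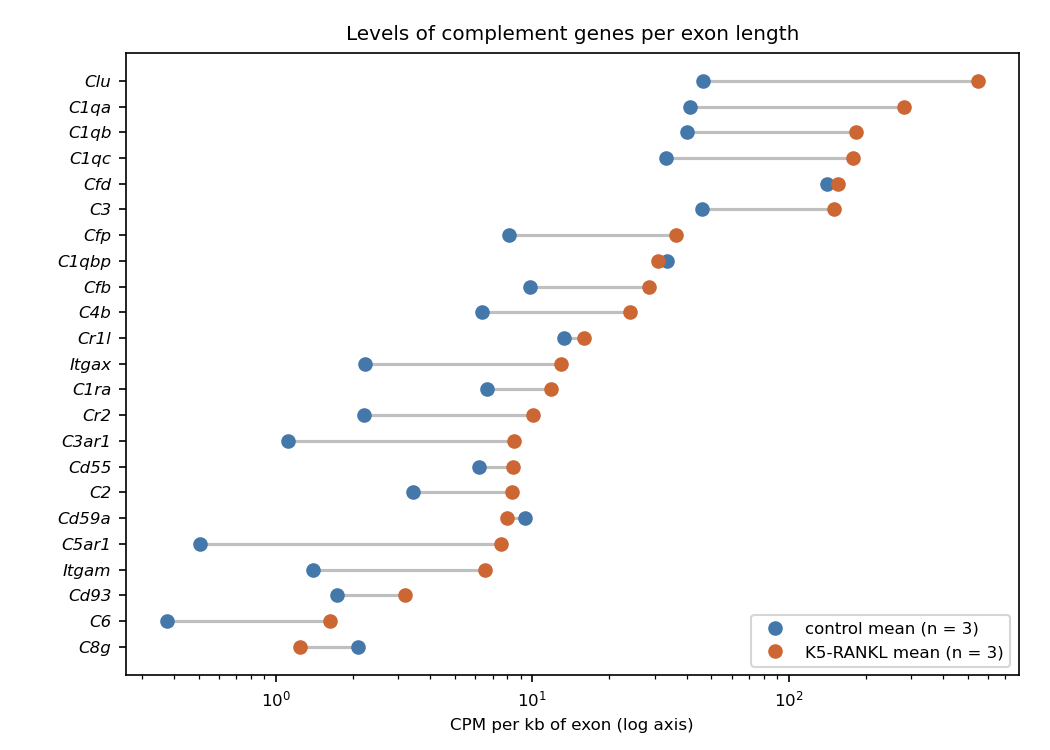
Mean CPM per kb of exon (x axis, log scale) of the 23 members that reached 1 CPM per kb in K5-RANKL libraries (y axis), in control (blue) and K5-RANKL (orange) libraries, n = 3 each; grey lines join the means of a gene. Clu leads in K5-RANKL libraries at 548 and Cfd in controls at 141.

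Other genes of the complement system, chosen by function and not among the 30, were described in the same way. Of 33 listed, 32 were in the table and 18 had enough counts to test. Among the latter 12 rose, 3 fell and 3 did not pass, where 34.2% of all genes tested rose and 32.1% fell. The median log2 fold change of the 18 was 1.56, the same with C4bp at its bound, beside 0.01 over all genes tested. Genes whose counts came mostly from the K5-RANKL libraries passed the low-count filter through that group, so these counts are a description. The highest fold changes among those called that reached 5 CPM were those of Fcna, Csmd1 and Serping1. Csmd1, which encodes a large membrane protein with complement control domains, rose by 2.51 (SE 0.22, edgeR adjusted p = 2.84e-08) from 1.49 ± 0.321 to 8.43 ± 1.81 CPM (SD, n = 3 each). The lowest were those of C1rl, Thbd and C1s1. Thbd, encoding thrombomodulin, an endothelial protein that aids inactivation of C3b, fell by 0.34 (SE 0.10, adjusted p = 0.00751) from 24.8 ± 2.08 to 19.8 ± 2.26 CPM. Its call was lost without control 3, at −0.27 (adjusted p = 0.0514), and by library totals it stood at 0.66. The third that fell was Cd59b, the copy of Cd59a, by 1.14 (SE 0.35, adjusted p = 0.00799), a call that DESeq2 did not make (adjusted p = 0.0787) and that was lost by library totals (−0.15, adjusted p = 0.7). C4bp, encoding the cofactor of factor I for C4b, had 0 counts in controls and 85 over the K5-RANKL libraries, at least 14.9-fold higher by the same bound (adjusted p = 5e-06). Only its K5-RANKL counts took C4bp through the low-count filter, so this p-value is a description. C4bp and Cd59b were singled out after their values were seen.

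**Figure D5:**
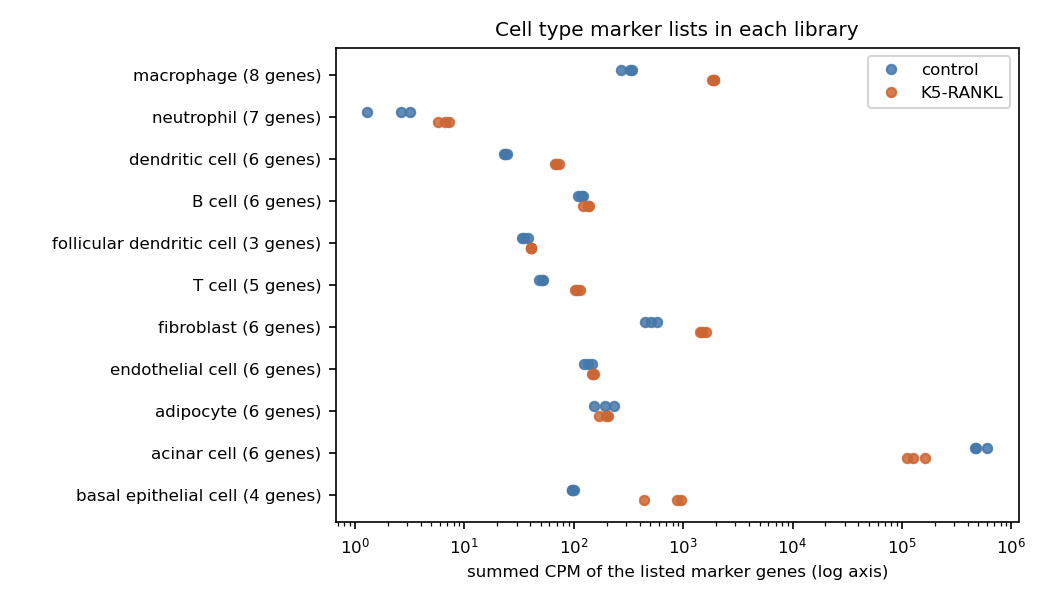
Summed CPM (x axis, log scale) of the marker genes of 11 cell types (y axis) in 3 control (blue) and 3 K5-RANKL (orange) libraries; each point is a library. Macrophage markers sum to 268 to 342 CPM in controls and to 1823 to 1919 CPM in K5-RANKL libraries, with most of each sum from Lyz2. The ranges of the adipocyte markers overlap.

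Lists of other cells that make complement proteins were read beside these values. Of 6 fibroblast markers 5 rose, with summed levels of 449 to 583 CPM in controls and 1419 to 1604 CPM in K5-RANKL libraries. Most of the rise in this sum came from 2 collagen chain genes. Col1a2 rose by 2.54 (edgeR adjusted p = 2.91e-07) from a mean of 110 to 637 CPM, and Col1a1 went from 68.3 to 498 CPM. Dpt, Pdgfra and Lum rose by 1.23, 0.69 and 0.28. Dcn, the highest of the 6 in controls, did not pass, at −0.12 (adjusted p = 0.258), with means of 245 and 226 CPM. Fibroblast markers other than Col1a2 are named after their values were seen. All 4 basal epithelial markers rose. Their summed level was 97.02 to 102 CPM in controls and 962, 434 and 876 CPM in the K5-RANKL libraries. Krt5, the most abundant of them, rose by 3.03 (adjusted p = 0.00337). All 6 acinar markers fell, the most abundant being Spt1, which fell by 1.94 (adjusted p = 1.29e-07). Of 5 T cell markers 4 rose, with Cd4, the most abundant, at 1.5 (adjusted p = 2.51e-09). The part of each of these cell types in the levels of C3, Cfb, C4b, Clu and the other members was not tested.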

How the data were processed

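The authors deposited raw read counts per gene for 6 libraries made from 250 ng of RNA using Illumina's TruSeq Stranded mRNA chemistry, per the labels. Reads were aligned with STAR to mm10, per the submitters' processing notes; its version, the counter, the annotation and the strand setting were not stated in the sources used here, so overlapping genes such as Cr1l and Cd46, and near-identical copies, are uncertain. Every deposited count column was used. Groups follow the genotype label, and replicate numbers follow accession order. Within groups, the chi-square of library pairs, divided by the number of genes (those with 20 counts or more), was 6.26 to 38.3, so no library repeats another.

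Counts were filtered (edgeR filterByExpr, minimum count 10), scaled by TMM and fitted in edgeR with robust quasi-likelihood dispersions over all 6 libraries, no covariate, Benjamini-Hochberg over 14044 genes, called under 0.05. SE is the log2 fold change over the square root of F. CPM are mean ± SD (n = 3). With 0 counts a library allows up to 0.124 to 0.294 CPM, from 3 counts. Ratios were compared by exact permutation of libraries. Exon lengths are unions of GENCODE M21 basic exons; positions are RefSeq GRCm38.p6, matched for 23495 of 23571 Entrez identifiers. The fits, run with edgeR 4.0.16, DESeq2 1.42.0 and limma 3.58.1 under R 4.3.3, were tested on simulated data. In these only a small share of genes was changed, in both directions, without a shift in RNA composition between groups. The simulation therefore does not test the scaling between groups.

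Members, lists and tests were chosen with earlier results of these data known. Full values are given for members that reached a mean of 5 CPM, the rest by range. Of other complement genes, Serping1, Itgb2 and the 3 highest and 3 lowest called fold changes at 5 CPM are named, and of each cell type list its most abundant gene. Ly6g, Trac, Fdcsp and 1 listed complement gene matched no symbol and were not used here. A further complement gene outside the 30 that meets this naming rule is not reported here.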

Additional observations from a re-analysis of the deposited data

How the results depend on the processing

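Alternatives were RLE and upper-quartile factors, TMM without the 20 most abundant genes, library totals only, no filter, at least 50 counts in 3 libraries, DESeq2, limma-voom and each library left out. By library totals only, 11733 genes rose and 698 fell, no member and no other complement gene fell, with 0 of each in place of 1 and 3, 26 members rose in place of 23, and 44 genes of the H2 stretch rose and 2 fell; C8g (0.24), Cd59a (0.75), C1qbp (0.88) and Thbd (0.66) changed direction, where the median of all genes is 1.01. With at least 50 counts in 3 libraries 0 members fell, because C8g was not tested, and 19 rose. Under every other alternative 23 members rose, and 1 fell except without K5-RANKL 2, where Cd59a made it 2; with 1 library left out the count that fell was between 1 and 2. Cfd, not called, stood at 0.47 without control 1, at −0.00 without control 2 or control 3 and at −0.05 without K5-RANKL 1.

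With 1 library left out, the genes called higher were between 4444 and 4764, and those called lower between 4144 and 4466. The log2 difference of the C1q ratio lay between 0.30 and 0.46, Itgam between 0.40 and 0.55, Itgax between 0.73 and 0.81, Cr2 between 1.89 and 2.10, C2 over Cfb between −0.31 and −0.19, Cfb over C3 between −0.25 and −0.08, and Cfd between −0.08 and 0.38. No paired analysis was possible because the labels give no replicate numbers shared by the groups. Depth limits Hc, Cd46 and Masp2, for which no difference was detectable, and the sizes for Vsig4, Masp1, C7 and Cfi.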
